A study of Mus musculus with 15 samples.

Results

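Heat shock proteins and chaperonins are the folding machinery that new and damaged proteins depend on, and their mRNA was followed here in mouse CD8+ T cells before and after activation, with PI3K p110δ inhibited, and after loss of IL-2. Members were every mRNA whose symbol begins with Hsp, or with Dnaja, Dnajb, Dnajc or Cct followed by a digit. This gave 65 of the 11262 mRNA in the table of naïve and TCR activated cells and 64 of the 11211 mRNA in the table of cytotoxic T lymphocytes (CTL), with 64 in both tables. Hspa1b was the member found in the first table alone. From textbook knowledge of where each protein works, 28 were placed in the cytosol or nucleus, 7 in the TRiC/CCT chaperonin, 8 in mitochondria, 14 in the endoplasmic reticulum (ER) and 8 elsewhere or uncertain. J proteins, the Hsp40 family, made up 39 of the 65. The symbol rule also takes in a few proteins that are not chaperones, such as Hspb11, a protein of the ciliary transport machinery, and Hspbap1, a partner of a small heat shock protein.

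All cells carried the LCMV-P14 transgenic T cell receptor (TCR), which recognises the gp33–41 peptide of lymphocytic choriomeningitis virus. For the first table, lymph node cells of female mice aged 9 to 13 weeks were pooled in groups of 3 animals, and each of 3 pools was divided between the conditions. Naïve cells were taken directly from the pool and sorted as CD8+ CD62Lhi CD44lo T cells, whereas TCR cells received the gp33–41 peptide at 100 ng/ml, together with 2 ng/ml IL-12 and IL-2 (20 ng/ml), and were sorted as live CD8+ cells after 24 h of culture. TCR + PI3Kdi cells had in addition 10 µM IC87114, a selective inhibitor of the p110δ catalytic subunit of PI3K. For the second table, P14 cells were activated for 48 h, grown for 4 more days in 20 ng/ml IL-2, washed on day 6, and then kept for 24 h either with 20 ng/ml IL-2 or with none. Each group held 3 libraries. The sex and age of the mice, the pooling and any sort of the CTL are not given in the sources used here, and in the CTL group with IL-2 the treatment labels of replicates 2 and 3 give another interleukin than the titles, which were followed.

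Chaperones of the Hsp70 family grip short greasy stretches of unfolded protein, and cycles of ATP binding set the grip. J proteins bring clients to Hsp70 and trigger its ATPase, while nucleotide exchange factors open it again. Hsp90 acts later, on nearly folded clients such as kinases and receptors, and the cage-like chaperonins (TRiC/CCT in the cytosol, Hsp60 with its Hsp10 lid in mitochondria) enclose proteins that cannot fold in the open, such as actin and tubulin. Each compartment has its own set. Cytosolic and mitochondrial chaperone genes are classic targets of the heat shock factor HSF1, and ER chaperone genes are classic targets of the unfolded protein response, in which ATF6 and XBP1 bind the ER stress element. T cells that leave quiescence grow and raise protein synthesis before they divide, and effector T cells need Hsp90 for the stability of several signalling kinases.

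The promoters of the members were searched for these elements because both pathways are known by their DNA letters. RefSeq promoters of build GRCm38.p6 (mm10), from 250 bases before to 50 after each start, matched 53 of the 65 members by symbol. A heat shock element, searched as GAANNTTCNNGAA on both strands, stood in 4 of these 53 members (7.55%), namely Hspd1, Hspe1, Hsph1 and Dnajb6, and in 0.662% of all 27025 genes with a promoter. The ER stress element, searched as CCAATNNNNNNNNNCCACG on both strands, stood in 3 members (5.66%), Hspa5, Hsp90b1 and Dnajc3, and in 0.137% of all genes. An E-box, CACGTG, was searched as well and stood in 7 of the 53 members (13.2%), Hspd1 and Hsph1 among them, and in 8.09% of all genes. Each heat shock and ER stress element is printed with 5 flanking bases on each side, read along the strand of the gene, with the element in capitals.
Hspe1: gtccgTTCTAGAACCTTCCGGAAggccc
Hsph1: gcagaTTCTGGAAAGTTCtcctc
Dnajb6: tccgaGAATCTTCCGGAAcgcta
Hspa5: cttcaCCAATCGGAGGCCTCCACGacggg
Hsp90b1: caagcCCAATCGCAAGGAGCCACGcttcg
Hsp90b1: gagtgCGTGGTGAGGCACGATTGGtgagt
Dnajc3: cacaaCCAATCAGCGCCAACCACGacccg
The Hspe1 site lies at chr1:55088054-55088081 on the plus strand and ends 72 bases before the Hspe1 start. Here 2 overlapping matches form a run of 18 bases. Hspe1 and Hspd1, which encode Hsp10 and Hsp60, are read in opposite directions from neighbouring starts. Of the 2 annotated Hspd1 starts, one lies 95 and the other 216 bases from that of Hspe1. The same 18 bases end 127 bases before the more distant one, read on the minus strand, so this site is counted for both members. The annotated 5′ ends of both genes overlap, and reads at that edge could be shared. The Hspa5 site lies at chr2:34772020-34772048 on the plus strand, 47 bases before the start, the Hsp90b1 sites at chr10:86705633-86705661 and chr10:86705528-86705556 on the minus strand (the second match reads on the opposite strand), and the Dnajc3 site at chr14:118937822-118937850 on the plus strand. The Hsph1 match lies at chr5:149636283-149636305 on the minus strand, 15 to 27 bases after one annotated start, and the Dnajb6 match at chr5:29735847-29735869 on the plus strand. A match describes letters and does not show binding, and promoters of Hsp90aa1, Hsp90ab1, Hspa8, Hspa9, Hspa13, Cct4, Dnajc2, Dnajc5, Dnajc11, Dnajc12, Dnajc18 and Dnajc30 were not searched.

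Expression is given as FPKM, a level per exon length that allows genes to be compared within a table. It is relative to the other mRNA of a library, so a rise or fall need not be one in mRNA per cell. The 2 tables were normalised separately, so tests were made within each table only. Read totals per library are not given in the sources used here, and no detection limit was used. All 7 measured markers of CD8+ T cells were called lower in TCR than in naïve cells, and Cd8a stood at 543 FPKM in naïve cells, 181 in TCR cells and 111 in CTL kept in IL-2. B cell markers summed to 20.9 to 26.3 FPKM in naïve libraries and 4.63 to 7.12 in TCR libraries, mostly from Cd79b. The lowest correlation between replicates of a group was 0.983, in the TCR libraries. Naïve and TCR cells were both sorted as CD8+ cells. For markers of other cells, and for CTL, whose sort is not given, fewer cells of a type and less RNA per cell cannot be told apart in bulk RNA.

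Some chaperone mRNA already stood at high FPKM in naïve cells. Hsp90ab1, the constitutive cytosolic Hsp90, was the highest member at 780, 799 and 790.0 FPKM in the 3 libraries, followed by Hspa8, the constitutive cytosolic Hsp70, at 818, 697 and 784. The ranges of both overlapped, so their order in naïve cells was within the spread of the libraries. These 2 mRNA made up 34.7% ± 1.89 (SD, n = 3) of the summed FPKM of all members. In naïve cells 15 members exceeded a mean of 100 FPKM, and in TCR cells 22 did so.

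How antigen and cytokines remodel this machinery within a day was asked by comparing TCR with naïve cells. Summed over all members, chaperone mRNA went from 4489.6 ± 146 FPKM (SD, n = 3) to 14317 ± 1035 FPKM, or from 0.984% to 2.99% of all FPKM in the table. In the limma fit, 22 of the 65 members rose more than 2-fold and 9 fell, beside 25.0% of all mRNA called higher and 23.7% called lower. The members called higher were therefore 33.8% and those called lower 13.8%. The median log2 fold change was 0.51 for the members and 0.01 for all mRNA. The families differed. Of the 26 members that are not J proteins, 19 rose and 1 fell, with a median log2 fold change of 1.68. Of the 39 J proteins, 3 rose and 8 fell, with a median of -0.04.

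**Figure D1:**
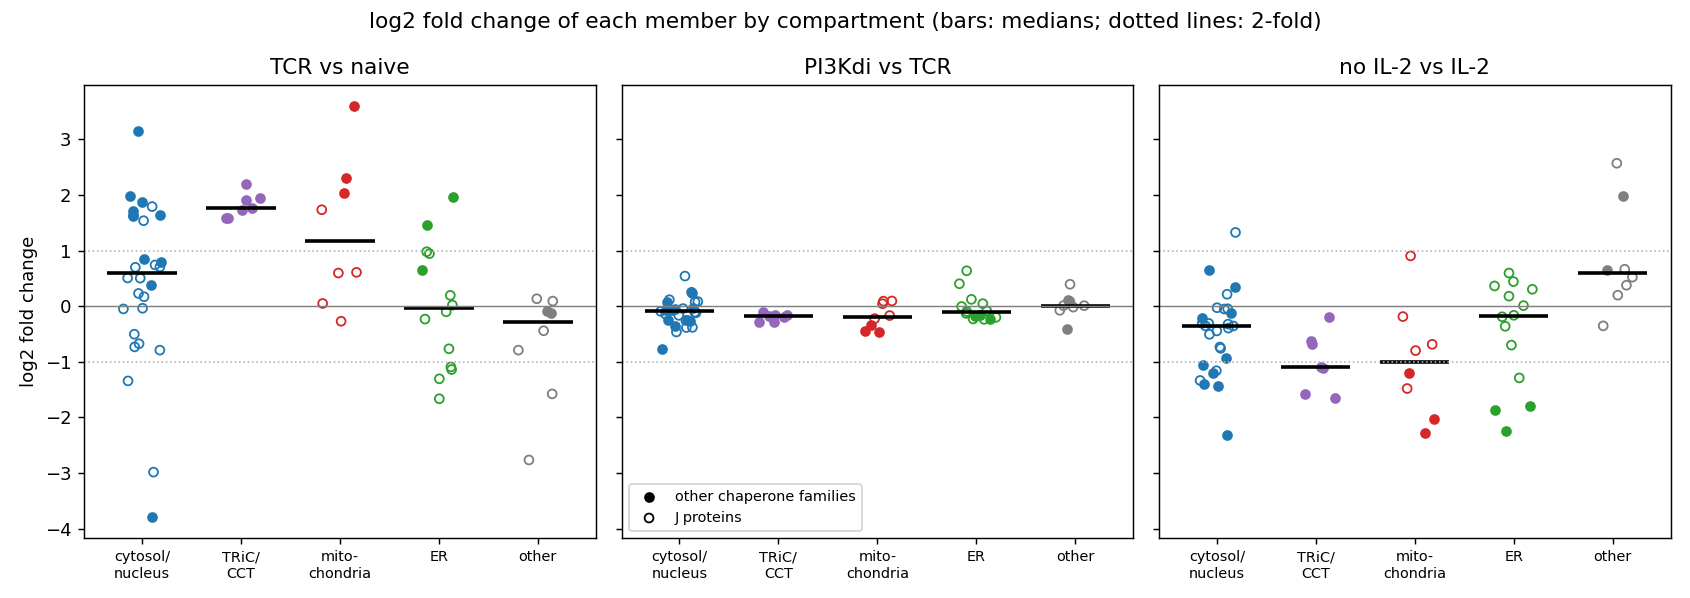
Log2 fold change (y axis) of each member in the 3 comparisons, grouped on the x axis by compartment, with filled points for Hsp and Cct families, open points for J proteins, bars at the median and dotted lines at 2-fold. All 7 TRiC/CCT subunits lie between 1.59 and 2.19 in TCR against naïve cells, no member passes the dotted lines with PI3Kdi, and most filled points lie below 0 without IL-2.

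In the cytosol, 9 of 28 members rose and 3 fell, or 32.1% and 10.7%, beside 25.0% and 23.7% of all mRNA. The rises lay mostly in the Hsp70 and Hsp90 core. Hsp90aa1, the stress-inducible Hsp90, had 98.8, 85.1 and 78.5 FPKM in naïve libraries and 669, 889 and 767 in TCR libraries. The groups did not overlap, and Hsp90aa1 rose 8.83-fold (log2 fold change 3.14 ± 0.12, SE, adjusted p = 9.05e-10). Hsp90ab1 reached 3008, 3164 and 3196 FPKM, the highest level of any member, and rose 3.95-fold (log2 fold change 1.98 ± 0.10, adjusted p = 6.08e-09). Hspa8 rose to 2101, 2507 and 2541 FPKM (log2 fold change 1.63 ± 0.12, adjusted p = 1.56e-07), all 3 values above every naïve library. The nucleotide exchange factors Hspa4 and Hsph1, which reset Hsp70, rose as well. Hspa4 went from 50.3 ± 2.40 to 185 ± 21.5 FPKM (log2 fold change 1.87 ± 0.09) and Hsph1 from 42.7 ± 10.4 to 133 ± 30.9 FPKM (log2 fold change 1.64 ± 0.22). Hspa4l, a close relative of Hspa4, had a log2 fold change of 0.80 ± 0.23 (adjusted p = 0.00648) and stayed under the 2-fold limit.

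Dnajc2 and Hspa14 form the ribosome-associated complex that meets nascent chains. Dnajc2 had 38.7, 43.3 and 35.5 FPKM in naïve and 120.1, 141 and 147 in TCR libraries (log2 fold change 1.79 ± 0.10, adjusted p = 1.50e-08), and Hspa14 had 40.4, 43.0 and 36.4 and 115, 132 and 122.81 (log2 fold change 1.63 ± 0.09, adjusted p = 2.01e-08). Neither pair of groups overlapped. Dnajc21, a J protein of large ribosomal subunit maturation, rose from 18.3 ± 0.373 to 53.4 ± 2.13 FPKM (log2 fold change 1.54 ± 0.08). Dnajc2 and Dnajc21 were the only cytosolic J proteins called higher. Hspa2, an Hsp70 known from testis, was also called higher, at 0.26, 0.42 and 0.18 FPKM in naïve and 1.1, 1.25 and 1.03 in TCR libraries (log2 fold change 1.71 ± 0.24). With a pseudocount of 1 its log2 fold change was 0.73, under the limit.

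The main cytosolic partners of Hsp70 in the J family were not called higher. Dnaja1, a class A Hsp40, had 40.8, 28.8 and 34.4 FPKM in naïve and 30.9, 37.3 and 32.6 in TCR libraries, with overlapping groups and a log2 fold change of -0.04 ± 0.13 (adjusted p = 0.805). Dnaja2 had a log2 fold change of 0.71 ± 0.11 (adjusted p = 9.06e-05), under the 2-fold limit. Dnajb1, the class B Hsp40 best known for induction by heat, had 64.6, 55.6 and 46.6 FPKM in naïve and 29.1, 30.6 and 36.3 in TCR libraries (log2 fold change -0.79 ± 0.13, adjusted p = 1.76e-04). All TCR values were below every naïve value, although the difference was under 2-fold. The FPKM ratio of Hspa8 to Dnajb1 was 14.0 ± 2.46 (SD, n = 3) in naïve and 74.8 ± 6.40 in TCR libraries.

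Hspa1b, a stress-inducible Hsp70, showed the largest fall of any member. It had 14.3, 13.8 and 1.66 FPKM in naïve libraries and 0.27, 0.37 and 0.66 in TCR libraries, so the groups did not overlap, but naïve replicate 3 was far below the other naïve libraries. The log2 fold change was -3.79 ± 0.66 (adjusted p = 2.29e-04), and it was -3.05, -3.24 and -5.08 without replicates 1, 2 and 3. Hspa1b is nearly identical to its neighbour Hspa1a, which was not analysed here, so its reads are uncertain. Among immediate early genes, which respond to handling of cells, Fos had 52.5, 170.2 and 37.0 FPKM in naïve and 2.98, 2.91 and 4.53 in TCR libraries. Zfp36 averaged 208 and 22.4. Of the 10 listed genes 4 were called lower and 2 higher, beside 23.7% and 25.0% of all mRNA. The log2 fold changes of the 10 ran from -4.31 to 7.76, with 6 below and 4 above 0. The summed level of the list was 499.7 to 836 FPKM in naïve and 268 to 388 in TCR libraries. Its part in the Hspa1b result was not tested. The other 2 falls in the cytosol were in J protein mRNA of low level. Dnajc6, the clathrin-uncoating auxilin, fell from 1.47, 1.48 and 1.9 to 0.09, 0.13 and 0.13 FPKM, and Dnaja4, a class A Hsp40, from 5.1, 4.47 and 4.54 to 1.47, 2.24 and 1.74.

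**Figure D2:**
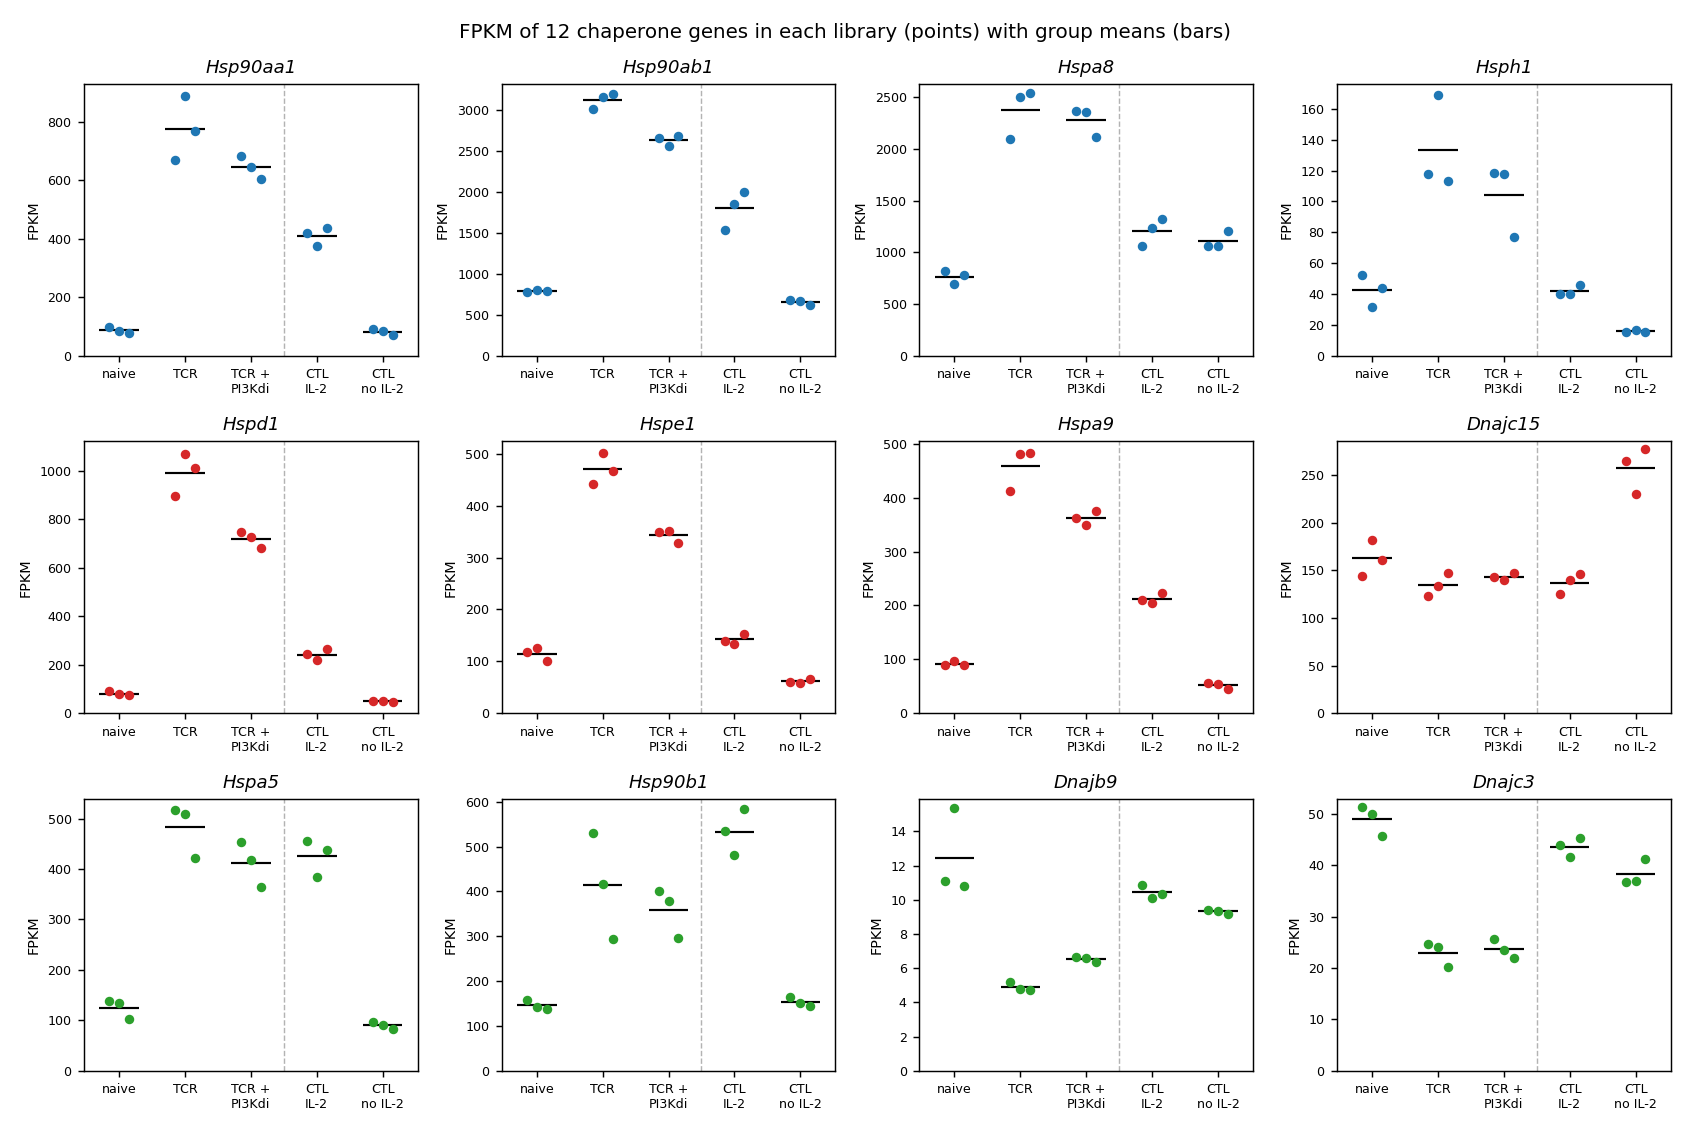
FPKM (y axis) of 12 chaperone mRNA in each library (points, replicates 1 to 3 from left to right) with group means (bars), for naïve, TCR, TCR + PI3Kdi, and the separately normalised CTL with and without IL-2 right of the dashed line, coloured blue for cytosol, red for mitochondria and green for ER. Hsp90aa1, Hspd1 and Hspa5 rise with activation and fall without IL-2, whereas Hspa8 differs little between the CTL groups and Dnajc15 is highest without IL-2.

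In the TRiC/CCT chaperonin, all 7 subunits covered by the rule rose, with log2 fold changes from 1.59 (Cct2, 3.01-fold) to 2.19 (Cct6a, 4.57-fold) and adjusted p from 1.18e-08 to 3.38e-07. Cct6a had 119, 127 and 110.2 FPKM in naïve and 436, 609 and 598 in TCR libraries. Cct4 had 120.5, 138 and 98.5 and 324, 432 and 424. For each subunit the lowest TCR library, replicate 1, was still above every naïve library. The 7 subunits summed to 975 ± 92.7 FPKM (SD, n = 3) in naïve and 3393 ± 471 in TCR cells. The remaining subunit, Tcp1, carries a symbol outside the rule and went from 104 to 483 FPKM (log2 fold change 2.21 ± 0.10). Of 13 other measured prefoldin and CCT partners, which hand actin and tubulin to the ring or work on them afterwards, 3 rose (Pfdn1, Pfdn2 and Pfdn4) and 1 fell (Pfdn5), a share of rises no larger than the 25.0% of all mRNA.

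**Figure D3:**
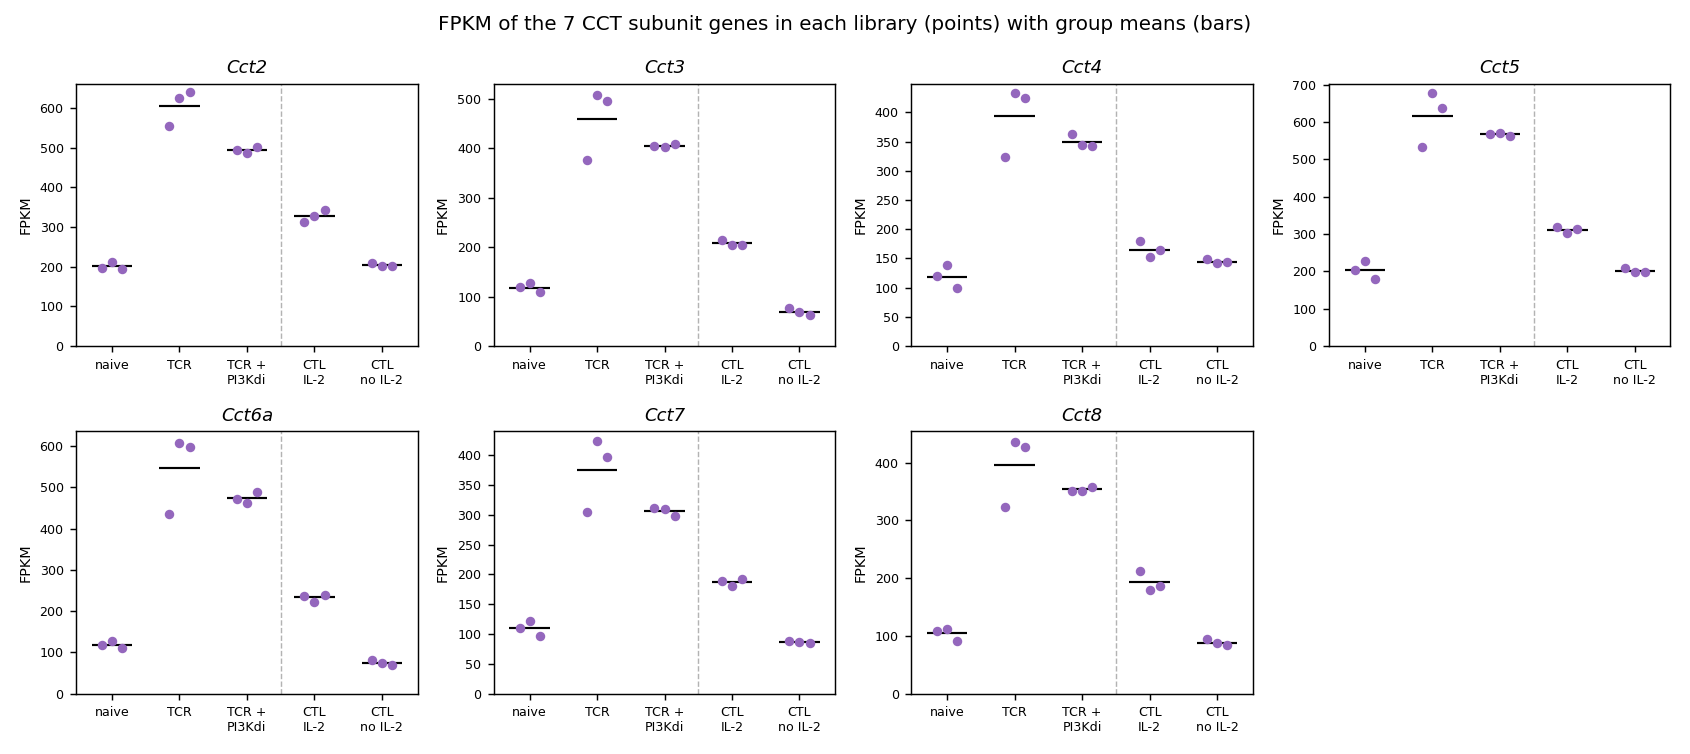
FPKM (y axis) of the 7 CCT subunit mRNA in each library (points) with group means (bars), for the 3 groups of the first table and, right of the dashed line, the CTL groups. The subunits share their rise in TCR cells, and without IL-2 Cct4 stays close to its level with IL-2 while Cct3 and Cct6a lie far below theirs.

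Mitochondrial chaperones held the largest rise of all. Hspd1, mitochondrial Hsp60, had 89.9, 79.8 and 74.4 FPKM in naïve and 896, 1072 and 1013 in TCR libraries, a 12.2-fold rise with no overlap (log2 fold change 3.61 ± 0.10, adjusted p = 1.12e-10). Its lid Hspe1, transcribed from the neighbouring start with the shared element shown above, had 118, 126 and 100.5 and 441, 502 and 467 (log2 fold change 2.03 ± 0.10, adjusted p = 5.33e-09). The rise was unequal, and the FPKM ratio of Hspd1 to Hspe1 went from 0.710 ± 0.0686 (SD, n = 3) to 2.11 ± 0.0709. Hspa9, the Hsp70 of the matrix, had 89.9, 96.4 and 89.9 and 413, 480.3 and 483 (log2 fold change 2.31 ± 0.08, adjusted p = 7.03e-10). Of the 5 mitochondrial J proteins, Dnajc11, a membrane J protein, rose from 21.6 ± 2.09 to 72.0 ± 3.01 FPKM, and the other 4 were not called. Dnaja3, the class A Hsp40 of mitochondria, had a log2 fold change of 0.61 ± 0.08 and Dnajc15 of -0.27 ± 0.10. Over the 8 mitochondrial members the median log2 fold change was 1.17. Beyond the rule, 9 of 14 mitochondrial partners rose (64.3%, beside 25.0% of all mRNA) and none fell by the same limits. Those that rose included the nucleotide exchange factor Grpel1 (log2 fold change 1.26 ± 0.12) and the protease Lonp1 (1.96 ± 0.11).

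ER chaperones were divided. The 2 abundant ones rose. Hspa5, the ER Hsp70 known as BiP, had 139, 134 and 102 FPKM in naïve and 518, 509.7 and 422 in TCR libraries (log2 fold change 1.96 ± 0.13, adjusted p = 1.05e-07), and Hsp90b1, the ER Hsp90 known as GRP94, had 159, 142 and 137 and 531, 416 and 295 (log2 fold change 1.47 ± 0.19, adjusted p = 1.93e-05). Neither overlapped, though TCR replicate 3 was lowest for both. Of the 11 ER J proteins none rose and 4 fell (36.4%, beside 23.7% of all mRNA), and their median log2 fold change was -0.23. Dnajb9, an ER lumen J protein that is a known target of the unfolded protein response, had 11.1, 15.4 and 10.8 and 5.19, 4.78 and 4.75 FPKM (log2 fold change -1.30 ± 0.14, adjusted p = 4.63e-06). Dnajc3, known as p58IPK, had 51.5, 50.02 and 45.8 and 24.7, 24.1 and 20.3 (log2 fold change -1.09 ± 0.10, adjusted p = 1.22e-06). The promoter of Dnajc3, like those of Hspa5 and Hsp90b1, holds the ER stress element printed above. Dnajb14 and Dnajc14, which sit in the ER membrane, had log2 fold changes of -1.66 ± 0.29 and -1.14 ± 0.09, Dnajb14 at under 3 FPKM in every library. Dnajb11, a lumen J protein that carries clients to BiP, had a log2 fold change of 0.95 ± 0.11 (adjusted p = 8.57e-06), just under the limit, and passed it (1.03) when libraries were scaled to equal medians.

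**Figure D4:**
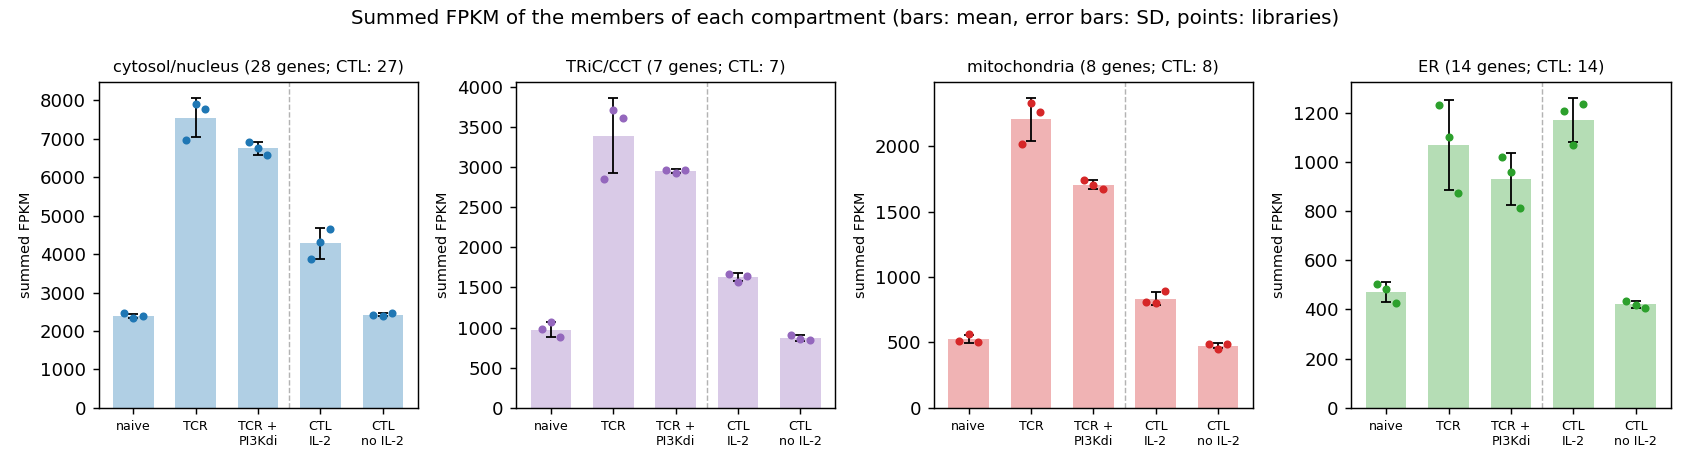
Summed FPKM (y axis) of the members of each compartment by group, with bars for means, error bars for the SD of 3 libraries and points for libraries, and the CTL table right of the dashed line. In TCR cells the mean sum is 4.18 times that of naïve cells for mitochondria, 3.48 times for TRiC/CCT, 3.15 times for the cytosol and 2.27 times for the ER, whereas without IL-2 the ER sum is lowest relative to CTL with IL-2, at 0.359 times.

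Regulators and partners in each compartment moved as follows. Hsf1, the main heat shock factor, had a log2 fold change of -0.18 ± 0.12 (adjusted p = 0.196) and was not called, whereas Hsf2 rose (1.14 ± 0.16). Of 26 measured heat shock factors and cytosolic co-chaperones, 12 rose (46.2%, beside 25.0% of all mRNA) and none fell. The rises were led by Bag2, an Hsp70 nucleotide exchange factor (1.97 to 26.4 FPKM), and Ppid, an Hsp90-bound cyclophilin (35.5 to 216). Of 30 measured ER partners, 14 rose and 2 fell, or 46.7% and 6.67%, beside 25.0% and 23.7% of all mRNA. Atf6, Xbp1 and Atf4, transcription factors of the unfolded protein response and the integrated stress response, had log2 fold changes of 2.00 ± 0.14, 1.39 ± 0.16 and 1.39 ± 0.17, and all 3 rose. Ddit3, the stress-linked factor CHOP, fell from 18.2 to 4.81 FPKM (log2 fold change -1.95 ± 0.28).

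Whether p110δ activity is needed for these changes was asked by comparing TCR + PI3Kdi with TCR cells. No member was called in either direction by limma at 2-fold, beside 3.04% of all mRNA called higher and 2.10% called lower. Without the fold limit, 5 members were lower at an adjusted p under 0.05 and 0 were higher, which is 7.69% of members beside 8.19% of all mRNA lower and 9.35% higher. At an unadjusted p under 0.05, 11 members were lower and 2 higher, beside 15.4% and 16.1% of all mRNA. The median log2 fold change of the members was -0.11 and that of all mRNA was -0.01.

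The 5 members lower without a fold limit, a share no larger than the 8.19% of all mRNA, were Hspd1, Hspe1, Hspa9, Cct2 and Dnajc21. Of these, 3 are the main chaperones of mitochondria, and Hspd1 and Hspe1 among them are read from neighbouring starts. Whether mitochondrial members stand out among the mRNA that were lower was not tested. Hspd1 had 747, 726 and 682 FPKM with PI3Kdi, each value below the TCR libraries given above (896, 1072 and 1013), which is 27.5% lower (log2 fold change -0.46 ± 0.10, adjusted p = 0.00929). Hspe1 had 349, 352 and 328 (26.9% lower, log2 fold change -0.45 ± 0.10, adjusted p = 0.0094) and Hspa9 363, 350.2 and 375 (20.8% lower, log2 fold change -0.34 ± 0.08, adjusted p = 0.0202). For all 3 the groups did not overlap, which also held for Hsp90ab1 below, and the share of all mRNA without overlap is not given here. The levels of these 3 with PI3Kdi were still several times those of naïve cells. Dnajc21 had 40.9, 44.1 and 38 FPKM (log2 fold change -0.38 ± 0.08, adjusted p = 0.00833) and Cct2 495, 486 and 503 (log2 fold change -0.29 ± 0.08, adjusted p = 0.0362). With the replicate number as a block Cct2 no longer passed (adjusted p = 0.0543), and of the 5 members 3 passed without replicate 1 (Hspd1, Hspe1 and Hspa9) and 0 without replicate 2 or without replicate 3, when each group held 2 libraries. The mitochondrial J proteins Dnaja3 and Dnajc19 had log2 fold changes of 0.09 ± 0.08 and 0.04 ± 0.10. The summed FPKM of the 8 mitochondrial members was 2018, 2333 and 2263 in TCR and 1741, 1703 and 1676 in TCR + PI3Kdi libraries, without overlap. The sums of all members and of the cytosolic members were lower without overlap too, and those of TRiC/CCT and ER members overlapped. Mean sums with PI3Kdi were 0.774 times those of TCR cells for mitochondria, 0.868 for all members and 0.894 for the cytosol. Summed over all mRNA, FPKM was 467868 to 488408 in TCR and 448701 to 456673 in TCR + PI3Kdi libraries.

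Beside Dnajc21, no cytosolic member passed without the fold limit, and no ER member did, although Dnajb9 passed as higher in a fit of only the 2 groups and Dnajb14 passed as higher without replicate 3. Hspa8 had 2368, 2359 and 2120.4 FPKM with PI3Kdi (log2 fold change -0.06 ± 0.12, adjusted p = 0.779), overlapping the TCR libraries. Hsp90aa1 and Hsp90ab1 had log2 fold changes of -0.26 ± 0.12 and -0.25 ± 0.10 (adjusted p = 0.167 and 0.107). Hsp90aa1 overlapped the TCR libraries, whereas Hsp90ab1, at 2655, 2565 and 2684 FPKM, was below all of them (3008, 3164 and 3196). Hspa5 had 453, 418 and 365 FPKM (log2 fold change -0.23 ± 0.13, adjusted p = 0.279) and Hsp90b1 401, 378 and 297 (-0.18 ± 0.19, adjusted p = 0.563). Both overlapped the TCR libraries. Dnajb9 was higher in every PI3Kdi library, at 6.63, 6.59 and 6.35 FPKM, with a log2 fold change of 0.40 ± 0.14 that missed the threshold (adjusted p = 0.0708). The other 6 TRiC/CCT subunits had log2 fold changes from -0.28 to -0.11 and none passed. In the partner lists no gene was called, and Xbp1 and Atf4 had opposite signs, at 0.82 ± 0.16 (adjusted p = 0.0052) and -0.77 ± 0.17 (adjusted p = 0.00967). The largest difference of any member was in Hspa1b, at -0.77 ± 0.66, with levels under 1 FPKM in both groups (adjusted p = 0.469). Of 4 measured B cell markers 2 were called lower with PI3Kdi, and the list summed to 3.3 to 4.58 FPKM, beside 4.63 to 7.12 in TCR libraries. All 7 CD8+ T cell markers had log2 fold changes above 0, and none was called. Of 10 immediate early genes 1 was called higher and 2 lower, beside 3.04% and 2.10% of all mRNA. The part of these genes in the results was not tested.

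How far chaperone mRNA in effector cells depends on IL-2 was asked by comparing CTL without and with the cytokine. Of 64 members, 19 were lower by more than 2-fold and 3 were higher, or 29.7% and 4.69%, beside 13.9% and 14.3% of all mRNA. The median log2 fold change was -0.35 for the members and 0.00 for all mRNA. Summed over the 64 members, the level went from 8007 ± 465 FPKM (SD, n = 3) with IL-2 to 4300.4 ± 74.6 without it. Families again differed. Of 25 members that are not J proteins, 15 were lower and 1 higher, and of 39 J proteins, 4 were lower and 2 higher.

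All 3 ER chaperones of the Hsp70 and Hsp90 families fell, and Hspa5 was among the largest falls. Hspa5 had 455, 385 and 438 FPKM with IL-2 and 97.4, 90.4 and 82.6 without it, a 4.72-fold fall without overlap (log2 fold change -2.24 ± 0.09, adjusted p = 2.00e-07). Hsp90b1 had 535, 481 and 584 and 164, 150.5 and 145 (log2 fold change -1.80 ± 0.09, adjusted p = 4.69e-07). Hspa13, a little-studied Hsp70 of the secretory pathway, had 7.52, 7.02 and 8.64 and 1.96, 2.14 and 2.01 (log2 fold change -1.87 ± 0.13, adjusted p = 1.85e-06). Among 11 ER J proteins Dnajb11 alone was called, at 65.1, 61.5 and 64.5 and 27.4, 26.8 and 23.9 FPKM (log2 fold change -1.29 ± 0.08, adjusted p = 1.04e-06). Dnajc3 and Dnajb9, which had fallen with activation, had log2 fold changes of -0.19 ± 0.08 and -0.16 ± 0.09 (adjusted p = 0.0577 and 0.135) and were not called. Of 31 measured ER partners 13 fell and 1 rose, or 41.9% and 3.23%, beside 13.9% and 14.3% of all mRNA. Sdf2l1, a partner of BiP and Dnajb11, had a log2 fold change of -2.36 ± 0.12, Calr, the lectin chaperone calreticulin, of -2.20 ± 0.12, and Xbp1 of -1.93 ± 0.10. The one that rose was Ddit3, from 9.85 to 25.4 FPKM.

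In mitochondria 4 of 8 members fell, beside 13.9% of all mRNA. Hspd1 had 243, 220.2 and 263 FPKM with IL-2 and 52.0, 51.5 and 45.2 without it (log2 fold change -2.28 ± 0.09, adjusted p = 1.76e-07), Hspa9 had 209.5, 204 and 224 and 56.7, 55.0 and 45.3 (-2.03 ± 0.10, adjusted p = 3.29e-07), and Hspe1 had 139, 134 and 154 and 59.9, 59.0 and 65.3 (-1.21 ± 0.08, adjusted p = 1.55e-06). The 4th was Dnajc11 (log2 fold change -1.48 ± 0.11). Dnajc15 and Dnajc19 are related J proteins of the inner membrane, where Dnajc19 serves the protein import motor and Dnajc15 is known as a brake on respiration. They moved apart. Dnajc15 had 126, 140.2 and 146 FPKM with IL-2 and 264, 230.1 and 278 without it (log2 fold change 0.91 ± 0.10, adjusted p = 2.35e-05), whereas Dnajc19 had 20.6, 24.5 and 24.0 and 13.4, 14.4 and 15.0 (-0.68 ± 0.10, adjusted p = 1.65e-04). Neither reached 2-fold. The FPKM ratio of Dnajc15 to Dnajc19 went from 5.97 ± 0.206 (SD, n = 3) to 18.1 ± 1.90, and in the first table it was 8.93 ± 0.290 in naïve and 4.89 ± 0.329 in TCR cells. The sum of the 8 mitochondrial members, Dnajc15 included, went from 833 ± 49.5 to 475 ± 19.6 FPKM. Of 14 mitochondrial partners, 3 fell, the proteases and unfoldases Lonp1, Clpp and Clpb, and 1 rose. These are 21.4% and 7.14%, beside 13.9% and 14.3% of all mRNA. The one that rose was Hscb, a J-type co-chaperone of iron-sulfur cluster assembly, with 16.4, 18.6 and 18.7 FPKM with IL-2 and 51.4, 49.7 and 63.5 without it, no overlap, and a log2 fold change of 1.60 ± 0.11 (adjusted p = 1.63e-06).

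In the cytosol 7 of 27 members were lower and 1 higher, or 25.9% and 3.70%, beside 13.9% and 14.3% of all mRNA. Hsp90aa1 showed the largest fall of any member, from 420.0, 374 and 437 FPKM with IL-2 to 92.8, 85.0 and 70.2 without it (log2 fold change -2.32 ± 0.11, adjusted p = 3.46e-07). Hsp90ab1 had 1542, 1859 and 2002 and 681, 674 and 624 (log2 fold change -1.44 ± 0.11, adjusted p = 3.60e-06). Hspa8 was different, with 1065, 1234 and 1323 FPKM and 1058, 1066 and 1204 FPKM, groups that overlapped, and a log2 fold change of -0.12 ± 0.11 (adjusted p = 0.347). It had the highest mean of any member in CTL without IL-2, while Hsp90ab1 had the highest in each other group. The Hsp70 exchange factors Hsph1 and Hspa4 fell (log2 fold changes -1.41 ± 0.09 and -1.20 ± 0.09), while Hspa4l had 0.66 ± 0.15 (adjusted p = 0.00311), higher in every library without IL-2 but under 2-fold. The ribosome-linked Dnajc2, Hspa14 and Dnajc21 fell (-1.33 ± 0.09, -1.06 ± 0.08 and -1.16 ± 0.11), Hspa14 only just past 2-fold and not with libraries scaled to equal medians (-0.99). Dnaja1 and Dnaja2 had log2 fold changes of -0.51 ± 0.10 and -0.73 ± 0.07 and Dnajb1 of -0.05 ± 0.09, and none was called. Hsf1 and Hsf2 had -0.68 ± 0.13 and -0.70 ± 0.13. Of 26 heat shock factors and co-chaperones 8 fell (30.8%, beside 13.9% of all mRNA), led by Ppid (-2.06 ± 0.10), and none rose.

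The TRiC/CCT subunits fell unequally. Cct6a had 238, 223 and 239 FPKM with IL-2 and 81.0, 74.5 and 68.5 without it (log2 fold change -1.64 ± 0.08, adjusted p = 4.11e-07), and Cct3, Cct8 and Cct7 fell with log2 fold changes of -1.59 ± 0.09, -1.12 ± 0.09 and -1.10 ± 0.07. Cct2 and Cct5 had -0.68 ± 0.07 and -0.62 ± 0.07, under 2-fold, with no overlap between groups. Cct4 had 179, 152 and 164 and 149, 141 and 143 FPKM (log2 fold change -0.19 ± 0.08, adjusted p = 0.0637). Every Cct4 library without IL-2 was below every library with it, but the difference did not pass the test. Tcp1, the subunit outside the rule, went from 267 ± 14.6 FPKM (SD, n = 3) with IL-2 to 113 ± 9.89 without it, with no overlap. Of 13 other measured prefoldin and CCT partners, 3 were called lower and 0 higher, beside 13.9% and 14.3% of all mRNA. The subunits sit in one ring, and the FPKM ratio of Cct6a to Cct4 was 1.42 ± 0.0810 (SD, n = 3) with IL-2 and 0.516 ± 0.0331 without it. In the first table this ratio was 1.01 ± 0.1003 in naïve and 1.39 ± 0.0361 in TCR cells. This pair was chosen after its values were seen.

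The 3 members called higher without IL-2 were Dnajc28, Hspbap1 and Dnaja4, all at low levels. Dnajc28, a J protein of uncertain role, had 0.02, 0.05 and 0 FPKM with IL-2 and 0.62, 0.59 and 0.66 without it (log2 fold change 2.57 ± 0.28), Hspbap1 had 1.21, 0.71 and 0.55 and 3.67, 3.35 and 3.21 (1.99 ± 0.25), and Dnaja4 had 1.26, 1.08 and 1.07 and 2.72, 3.07 and 3.22 (1.33 ± 0.16). No groups overlapped, but with a pseudocount of 1 in place of 0.1 the log2 fold changes of Dnajc28 and Dnaja4 were 0.67 and 0.91, under the limit. Of the listed markers of other cells, 2 of 7 myeloid and 1 of 5 B cell markers were measured in CTL. These and Cd4 were called higher without IL-2, at low levels, and the 1 measured NK cell marker was not called (log2 fold change 0.70). The integrins Itgam and Itgax, of the myeloid list, summed to 0.5 to 0.72 FPKM with IL-2 and 7.59 to 9.27 without it. Cd79b had 6.3, 3.96 and 2.74 and 20.6, 15.7 and 10.8. Of 7 CD8+ T cell markers 3 were called higher and none lower without IL-2, and of 9 immediate early genes 5 were called lower. Of all mRNA 14.3% were called higher and 13.9% lower. The part of these marker and immediate early genes in the results was not tested.

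Activation and IL-2 withdrawal share no libraries, so their values can be set side by side for the 64 members in both tables. Of 22 members called higher in TCR cells, 17 were called lower without IL-2 (77.3%), which is 89.5% of the 19 called lower. Over all 10637 mRNA in both tables, these shares were 42.8% of 2513 and 76.6% of 1404. The 5 members that rose with activation and were not called lower without IL-2 were Hspa8, Hspa2, Cct2, Cct4 and Cct5. Conversely Hspa13 and Dnajb11 fell without IL-2 and had not passed 2-fold with activation. Of 8 members called lower in TCR cells, 2 (Dnaja4 and Dnajc28) were called higher without IL-2. Across the 64 members the log2 fold changes had a Pearson r of -0.76 and a Spearman rho of -0.79, against -0.64 and -0.69 across all 10637 mRNA. These describe genes, which are not independent replicates and share their library and level.

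**Figure D5:**
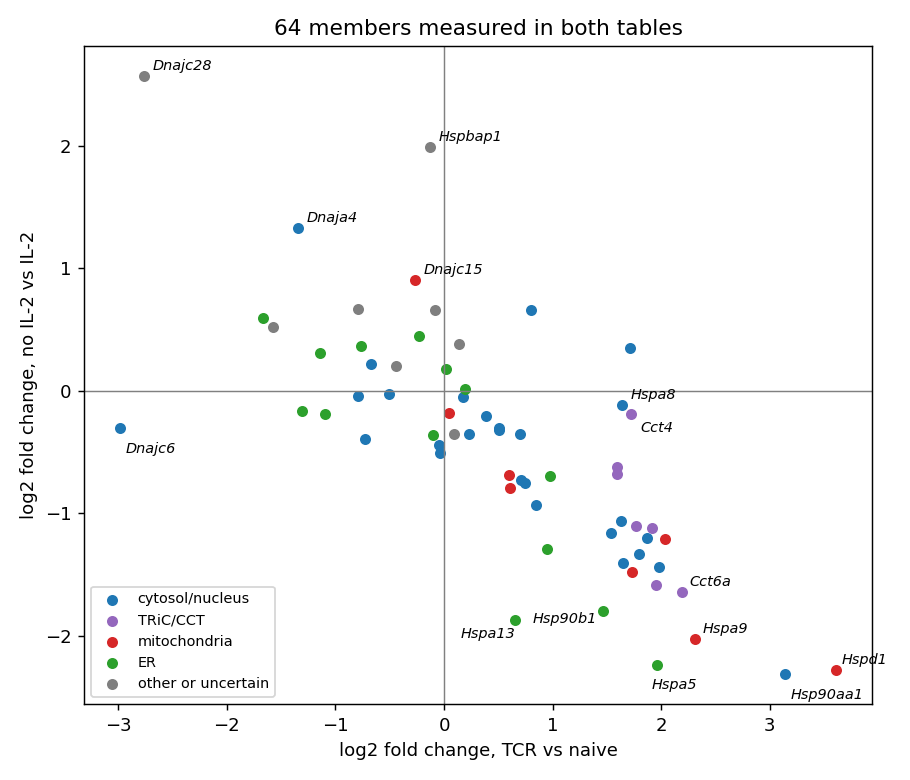
Log2 fold change in TCR against naïve cells (x axis) and in CTL without against with IL-2 (y axis) for the 64 members in both tables, one point per mRNA, coloured by compartment. Points run from Dnajc28 at upper left (-2.76 and 2.57) to Hspd1 at lower right (3.61 and -2.28), with Hspa8 and Cct4 near 0 on the y axis and Hspa13 low on it.

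Shifts of single chaperones against each other were examined with 4 FPKM ratios within each library. Each ratio was tested in 3 comparisons by an exact two-sided permutation test over 6 libraries. With 3 against 3 libraries no p can be below 0.1, so none of the 12 could pass 0.05, and adjusted over the 12 the smallest was 0.171. Within pools, taken to be pairs of libraries with the same number, the smallest exact p is 0.25. The ratio of ER to cytosolic Hsp70 (Hspa5 to Hspa8) was 0.164 ± 0.0317 (SD, n = 3) in naïve and 0.205 ± 0.0402 in TCR libraries. The groups overlapped (p = 0.3, exact permutation test), but within pools the ratio was higher in 3 of 3, from 0.170 to 0.246, 0.193 to 0.203 and 0.130 to 0.166 (paired exact p = 0.25). Without IL-2 it went from 0.357 ± 0.0616 to 0.0818 ± 0.0120, with no overlap (p = 0.1, exact permutation test). The ratio of mitochondrial to cytosolic Hsp70 (Hspa9 to Hspa8) went from 0.121 ± 0.0153 in naïve to 0.193 ± 0.00336 in TCR libraries and was 0.159 ± 0.0151 with PI3Kdi, with no overlap in either step (p = 0.1 for each, exact permutation test). Without IL-2 it went from 0.177 ± 0.0171 to 0.0476 ± 0.00870 (p = 0.1, exact permutation test). Hspa8, the denominator of both ratios, was itself not called lower without IL-2. Summed FPKM without IL-2 was 0.570 times that with IL-2 for mitochondrial members, 0.565 times for cytosolic members and 0.359 times for ER members. The ratios therefore describe pairs of mRNA and not whole compartments.

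In the Hsp90 family, the ratio of ER to cytosolic Hsp90 (Hsp90b1 to Hsp90ab1) was 0.185 ± 0.0163 (SD, n = 3) in naïve and 0.133 ± 0.0421 in TCR libraries. The groups overlapped (p = 0.2, exact permutation test), but within pools the ratio was lower in 3 of 3, from 0.203 to 0.176, 0.178 to 0.131 and 0.173 to 0.0923 (paired exact p = 0.25). It went from 0.299 ± 0.0446 to 0.232 ± 0.00870 without IL-2 (p = 0.1, exact permutation test). Within the cytosol, the ratio of inducible to constitutive Hsp90 (Hsp90aa1 to Hsp90ab1) went from 0.111 ± 0.0141 to 0.248 ± 0.0302 with activation and from 0.230 ± 0.0372 to 0.125 ± 0.0119 without IL-2, with no overlap in either (p = 0.1 for each, exact permutation test). With PI3Kdi it was 0.245 ± 0.0167, overlapping the TCR libraries (p = 1, exact permutation test).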

How the data were processed

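The authors deposited FPKM values. Total RNA was made into stranded mRNA libraries. Per the methods and the submitters' processing notes, the authors aligned reads to mm10 with STAR 2.5.2b and counted them over RefSeq genes with Subread 1.5.1. The authors then left out genes of low count, used TMM scaling from edgeR, and derived FPKM from the total exon length. The methods do not describe the CTL table, and the same steps were assumed. Whether strand was used in counting is not given in the sources used here, and 28 members overlap another annotated gene. Values hold 2 decimals, and 1039 blank cells of the first table were read as 0. Read depth is unknown, and all calls rest on the spread of 3 libraries a group.

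From these values, log2(FPKM + 0.1) was fitted with limma 3.58.1 in R 4.3.3, with an intensity trend, the 9 libraries of the first table in one fit and the 6 CTL libraries in another. Adjustment followed Benjamini and Hochberg across every mRNA of a table. A call needed both an adjusted p below 0.05 and a fold change of more than 2 or less than 0.5. Fold changes are on the log2(FPKM + 0.1) scale, which understates those of low mRNA. Ratios were compared with scipy 1.17.1. Alternatives were pseudocounts of 1 and 0.01, a fit of only the groups compared, a filter at a mean of 1 FPKM, median scaling, the replicate block, no intensity trend, the fold limit and leaving out each replicate number. The fits were tested on simulated data. RefSeq positions matched all 65 members, and promoter motifs were chosen after the values were seen. Compartments come from textbook knowledge.

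Named members were 27 measured core chaperones, the 5 largest rises and falls with activation, up to 10 called members in each direction for the other comparisons, and members with opposite calls. Partners named were those called without IL-2, Hsf1, Hsf2, Xbp1, Atf4, Atf6 and Ddit3. Dnajb6, Dnajc5, Dnajc14, Dnajc15, Dnajc19, Dnajc21 with PI3Kdi, Hspa2, Hspb11, Grpel1 and Pfdn5 were named after their values were seen, as were the described ratios of a pair of members with no test. Members and lists were chosen with earlier results of these data known.

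Pairing by replicate number was checked by correlating deviations from group means across mRNA. Same-numbered libraries had r of 0.203 to 0.506 for TCR and TCR + PI3Kdi, 0.123 to 0.257 for the CTL groups and -0.181 to 0.226 for naïve and TCR. Per the methods each pool of mice was divided between the conditions, and a replicate number of the first table was taken to mark one pool. For naïve and TCR the correlations did not show this pairing, with a mean r of -0.03 for same and 0.02 for different numbers. For the CTL the numbers were taken to pair the libraries because every same-numbered correlation was above 0.1.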

Additional observations from a re-analysis of the deposited data

How the results depend on the processing

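With the replicate block, the counts of members called were 22 higher and 9 lower with activation, 0 with PI3Kdi, and 3 higher and 19 lower without IL-2, and it changed no call at 2-fold. Without a fold limit the block ended the calls of Dnajb6 with activation (adjusted p = 0.0536), Cct2 with PI3Kdi (0.0543) and Dnajc5 without IL-2 (0.0643), and Dnajb14 passed without IL-2 (0.0246). Counts moved by more than 1.5 times when the fold limit changed. Without it, activation gave 35 higher and 17 lower, PI3Kdi 5 lower, and loss of IL-2 13 higher and 35 lower. At a limit of 1.5, activation gave 14 lower and loss of IL-2 gave 7 higher. With a pseudocount of 1, 1 member was higher without IL-2. Leaving out 1 replicate number gave 22 to 23 higher and 9 to 10 lower with activation, 0 with PI3Kdi, and 3 to 4 higher and 19 lower without IL-2.

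Scaling libraries to equal medians moved the median of all mRNA by 0.08 with activation and 0.07 without IL-2 (log2), and the medians of mitochondrial members with activation to 1.25, of TRiC/CCT members without IL-2 to -1.03 and of ER members without IL-2 to -0.11. It turned Dnaja1 with activation to 0.044 and Dnajb1 without IL-2 to 0.024, neither called. Leaving out 1 replicate number moved the median of ER members with PI3Kdi over -0.17 to -0.035 (log2).

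Without 1 replicate number, log2 fold changes with activation ran over -0.24 to 0.15 (Dnaja1) and -0.23 to 0.015 (Hspbap1). With PI3Kdi they ran over -0.17 to 0.042 (Hspa8), -0.16 to 0.00082 (Hspa4), -0.22 to 0.064 (Hspa4l), -0.13 to 0.058 (Hspa14), -0.16 to 0.016 (Dnaja2), -0.10 to 0.20 (Dnajb13) and -0.033 to 0.21 (Hspbap1), none called. With a pseudocount of 1, Dnajb13 with PI3Kdi had -0.0011. Without 1 number the log2 ratios with PI3Kdi ran over -0.029 to 0.21 (Hsp90b1 to Hsp90ab1) and -0.12 to 0.061 (Hsp90aa1 to Hsp90ab1). Of the other results of named members, 964 kept direction and side of the threshold, 4 fell short of it and 2 newly passed it. Read depth is not known, so no limit of detection can be given.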
